A study of Mus musculus with 14 samples.

Results

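Clones T and L are 2 of the 6 single-cell clones of the mouse mammary carcinoma line 4T1 whose DNA methylation was measured across the genome. They were chosen by their low mean methylation in the tables described here and set against the other 4 clones, E, I, K and P. Because the pair was selected on these levels, every difference between it and the other clones is a description, and no test is given. The labels assign the 6 clones to another contrast: E and T were intravasating, that is, able to enter blood vessels, and I, K, L and P were non-intravasating. The pair therefore holds 1 clone of each label. All 6 clones were untreated and shared the same medium, and each is a single clone, so a difference between clones is not a difference between conditions.

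DNA methylation is the addition of a methyl group to cytosine, in mammals mostly where cytosine is followed by guanine (CpG). Maintenance enzymes copy the pattern to new strands after replication. Promoters dense in CpG are usually free of methylation, whereas promoters with few CpGs and most of the genome between genes are usually methylated. A hypomethylated region (HMR) is a stretch whose methylation is low against its surroundings, and many lie at promoters and enhancers. Tumour cells and cells in long culture are known for stretches of partial methylation away from active genes.

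Levels were fractions from 0 (no cytosine methylated) to 1, with 1 deposited value per clone for each promoter and HMR. Of the 14 libraries in the labels, the 6 clones account for 2 rounds each, without a column per round, and the parental line was not analysed here. The tables held 20925 promoters and 97247 HMRs on autosomes. Read depth is unknown, so no counting error can be given. The spread over the clones E, I, K and P is the one spread available, and the choice of the pair as low narrows it. A level of exactly 0 may be an unmethylated region or one without a usable estimate, which cannot be told apart. The promoters of the epithelial markers were at or under 0.377 in all 6 clones, for example 0.0375 to 0.120 for Cdh1, which encodes E-cadherin, and 0.131 to 0.208 for Epcam, an adhesion molecule. Those of leukocyte and endothelial markers were high, with 0.708 to 0.854 for Ptprc (the leukocyte antigen CD45) and 0.812 to 0.888 for Pecam1 (an endothelial adhesion molecule), while the mesenchymal markers ranged from 0.00236 to 0.0180 for Vim (vimentin) to 0.833 to 0.913 for Thy1. A promoter level does not by itself show whether a gene is expressed.

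Promoter sequences are shown for genes described below, so that their CpG content can be read beside the levels. Capitals mark each CpG in the 250 bases before the gene start, 5′ to 3′ on the gene's strand (RefSeq, GRCm38.p6). The first 4 are those with the largest gap among promoters lower in both T and L that had 1 matching sequence that is printed here. The genes with the widest gaps in each direction, Lyzl1, Defb4 and Bmp7, are not among the sequences. No source used here gives the bounds of the promoters in the deposited table, so these windows locate the gene start and not the measured interval.
Skint10: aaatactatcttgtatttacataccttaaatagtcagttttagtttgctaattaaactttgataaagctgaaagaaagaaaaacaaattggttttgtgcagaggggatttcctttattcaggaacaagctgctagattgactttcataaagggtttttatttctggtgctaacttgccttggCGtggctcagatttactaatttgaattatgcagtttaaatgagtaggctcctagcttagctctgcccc
Vmn2r61: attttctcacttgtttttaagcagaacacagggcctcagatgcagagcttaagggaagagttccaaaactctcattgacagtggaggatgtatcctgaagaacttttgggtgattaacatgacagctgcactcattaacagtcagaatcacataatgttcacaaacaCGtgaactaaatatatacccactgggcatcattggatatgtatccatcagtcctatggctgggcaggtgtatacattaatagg
Vmn2r70: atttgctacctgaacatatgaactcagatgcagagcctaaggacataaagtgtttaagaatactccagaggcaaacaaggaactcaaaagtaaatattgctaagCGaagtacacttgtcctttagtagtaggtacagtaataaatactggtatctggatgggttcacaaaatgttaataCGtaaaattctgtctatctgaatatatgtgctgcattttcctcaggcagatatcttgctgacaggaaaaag
Klri1: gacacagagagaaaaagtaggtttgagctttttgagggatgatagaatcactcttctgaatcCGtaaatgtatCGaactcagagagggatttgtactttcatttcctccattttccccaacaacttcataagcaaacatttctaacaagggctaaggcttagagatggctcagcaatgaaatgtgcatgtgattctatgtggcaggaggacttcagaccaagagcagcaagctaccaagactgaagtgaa
These lie at chr4:112774862-112775111, minus strand (Skint10), chr7:42259803-42260052, plus strand (Vmn2r61), chr7:85569089-85569338, minus strand (Vmn2r70) and chr6:129717133-129717382, minus strand (Klri1), and hold 1, 1, 2 and 2 CpGs. The next 4 had the largest gap among promoters higher in both T and L, by the same rule.
Olfr56: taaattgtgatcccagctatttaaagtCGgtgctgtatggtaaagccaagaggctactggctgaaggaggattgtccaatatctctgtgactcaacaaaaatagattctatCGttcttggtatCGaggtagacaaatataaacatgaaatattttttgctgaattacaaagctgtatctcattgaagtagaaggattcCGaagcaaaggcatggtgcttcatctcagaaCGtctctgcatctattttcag
Zfp955a: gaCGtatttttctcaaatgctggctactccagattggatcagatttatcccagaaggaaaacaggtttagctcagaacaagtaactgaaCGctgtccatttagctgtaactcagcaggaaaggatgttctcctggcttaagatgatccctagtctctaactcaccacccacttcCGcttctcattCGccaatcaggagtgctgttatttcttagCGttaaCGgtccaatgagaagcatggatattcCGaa
Adamts17: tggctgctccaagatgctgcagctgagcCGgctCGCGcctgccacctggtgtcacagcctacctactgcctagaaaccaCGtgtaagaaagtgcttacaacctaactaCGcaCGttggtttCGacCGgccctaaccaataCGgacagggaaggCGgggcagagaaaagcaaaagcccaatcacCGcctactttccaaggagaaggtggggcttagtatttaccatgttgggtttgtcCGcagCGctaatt
Olfr994: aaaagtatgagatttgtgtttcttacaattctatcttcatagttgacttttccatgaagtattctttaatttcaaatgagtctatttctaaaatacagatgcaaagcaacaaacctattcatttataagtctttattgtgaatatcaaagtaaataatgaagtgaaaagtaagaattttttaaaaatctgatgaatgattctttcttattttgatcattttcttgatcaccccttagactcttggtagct
They lie at chr11:49133923-49134172, plus strand (Olfr56), chr17:33255146-33255395, minus strand (Zfp955a), chr7:66839485-66839734, plus strand (Adamts17) and chr2:85430828-85431077, minus strand (Olfr994), with 5, 7, 13 and 0 CpGs. All 4 lower sequences were thus poor in CpG, and of the 4 higher ones only that of Olfr994 had as few.

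The pair was low in both tables, and much lower in relative terms over HMRs. Mean promoter methylation was 0.374 in clone T and 0.366 in clone L. It was 0.40 in E, 0.407 in I, 0.398 in K and 0.401 in P. These 4 clones differed among themselves by an SD of 0.00409, and the mean of T and L lay 0.0318 below their mean. The pair was chosen for low levels, and leaving it out narrows this SD and that over HMRs below. Neither SD is thus a yardstick for the difference. This difference, the mean of E, I, K and P minus the mean of T and L, is termed loss below, with no order in time implied. Over HMRs the mean was 0.122 in T and 0.111 in L. It was 0.195 in E, 0.174 in I, 0.157 in K and 0.161 in P, with an SD of 0.0169 among these 4. The HMR loss of 0.0553 was 32.2% of the starting level, the mean of E, I, K and P, whereas the promoter loss was 7.92% of it. In the plot of mean levels by clone, clone E stands highest over HMRs but not over promoters.

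**Figure D1:**
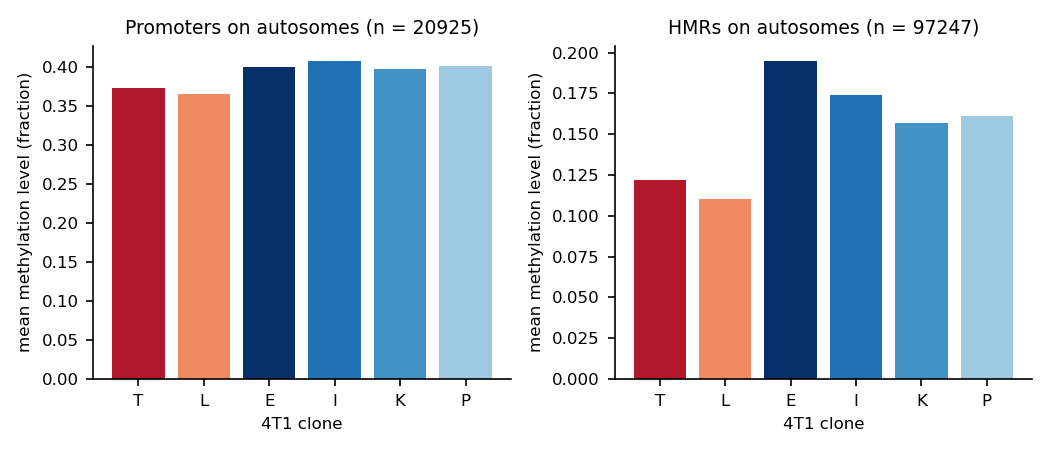
Mean methylation level (fraction, vertical axis) of each 4T1 clone over autosomal promoters (left) and autosomal HMRs (right), 1 bar per clone, with no error bars since each clone has 1 deposited value per region. Clones T and L are the lowest bars in both panels, at 0.374 and 0.366 over promoters and 0.122 and 0.111 over HMRs.

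Both clones had lower means than each of the 4 others on all 19 autosomes, in both tables. By chromosome, the promoter loss ran from 0.0255 on chromosome 8 to 0.0387 on chromosome 10. The HMR loss ran from 0.0366 on chromosome 18 to 0.0765 on chromosome 15. The low levels of the pair were therefore not a matter of 1 chromosome. T and L were not alike at every promoter: the mean absolute difference between them was 0.0434, larger than the loss itself, and L was the lower of the pair at 55.9% of promoters.

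The first question was which promoters placed T and L together on 1 side of the 4 other clones. Both clones lay below all of E, I, K and P at 5514 autosomal promoters (26.4% of 20925) and above all of them at 392 (1.87%). When the nearest clones of the 2 sets had to lie 0.1 or more apart, 141 promoters were lower (0.674%) and 4 were higher (0.0191%). These shares are the background for every gene list below. Each of the 2 scalings applied next removes the difference in overall level by construction, and the balance of the counts changes with it. After each clone was shifted to the same mean, 1818 promoters were lower and 4613 higher with any gap, and 39 and 5 with a gap of at least 0.1. After quantile normalisation, which gives each clone the same distribution of levels, the counts were 1521 and 1735 with any gap, and 24 and 6 with the gap of 0.1. All 39 and all 24 were among the 141, and the 4 higher promoters were kept under both scalings. Leaving out clones T, L, E, K and P in turn gave 986, 490, 222, 256 and 226 lower promoters with the gap of 0.1, since fewer clones have to be separated. Without T, L and K, 65, 31 and 7 promoters were higher by that gap.

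Of the 15 lower promoters with the largest gaps, 6 belonged to chemosensory receptors and 9 to other genes. The largest gap was at Lyzl1, a lysozyme-like gene known from the testis, on chromosome 18, with 0.273 in clone T and 0.271 in clone L, against 0.694 in E, 0.739 in I, 0.864 in K and 0.743 in P. T and L were nearly equal there, and the nearest other clone, E, was more than 0.4 above them. Skint10, of a gene family of the thymus and skin related to the butyrophilins, came next with 0.30 in clone T and 0.333 in clone L, against 0.810 in E, 0.694 in I, 0.811 in K and 0.610 in P. Klri1, a lectin-like receptor of natural killer cells, was at 0.446 in clone T and 0.510 in clone L, against 0.779 in E, 0.791 in I, 0.865 in K and 0.678 in P. At both genes the 4 other clones spread over a wider range than T and L did, though a range over more clones tends to be wider. Rpe65, the isomerase of the visual cycle, was at 0.381 in clone T and 0.50 in clone L, against 0.744 in E, 0.750 in I, 0.70 in K and 0.662 in P. Prx encodes periaxin of the myelin sheath of peripheral nerves, and its promoter was at 0.538 in T and 0.564 in L against 0.726 to 0.80 in the other clones. Adam26b, of a family of testis metalloproteases, had 0.411 in T and 0.351 in L against 0.573 to 0.646. Ccdc7 (0.286 in T and 0.292 in L against 0.468 to 0.584) and the cDNA-named genes 8430436N08Rik (0.293 in T and 0.347 in L against 0.516 to 0.633) and 9330178D15Rik (0.328 in T and 0.327 in L against 0.490 to 0.607) complete the non-receptor part.

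The remaining 6 of these 15 encode chemosensory receptors, which detect odours and pheromones in the nose. Vmn2r61, a vomeronasal receptor of type 2, was at 0.224 in clone T and 0.232 in clone L, against 0.467 in E, 0.575 in I, 0.462 in K and 0.548 in P. Vmn2r70 of the same family was at 0.180 in clone T and 0.155 in clone L, against 0.394 in E, 0.40 in I, 0.417 in K and 0.488 in P, and Vmn2r74 was at 0.158 in T and 0.189 in L against 0.353 to 0.556. T and L were close to each other at all 3, which the choice by the largest gap favours. The olfactory receptor promoters were at 0.414 in T and 0.378 in L against 0.582 to 0.647 for Olfr96, 0.438 in T and 0.395 in L against 0.597 to 0.645 for Olfr671 and 0.285 in T and 0.238 in L against 0.442 to 0.505 for Olfr380. The sequences shown above for Vmn2r61 and Vmn2r70 hold few CpGs, and the share of receptor promoters like them is given below.

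Promoters higher in both T and L were few, and 4 had a gap of at least 0.1. Bmp7, a secreted bone morphogenetic protein, was the clearest, with 0.379 in clone T and 0.432 in clone L, against 0.154 in E, 0.0304 in I, 0.146 in K and 0.0942 in P. No clone of the other set came within 0.2 of the pair there. Defb4, a beta-defensin (an antimicrobial peptide), was at 0.417 in clone T and 0.375 in clone L, against 0.143 in E, 0 in I, 0 in K and 0 in P. Of the 4 other clones, 3 were thus listed at 0, and the depth behind these levels is unknown. Olfr56 was at 0.60 in clone T and 0.583 in clone L, against 0.20 in E, 0.273 in I, 0.286 in K and 0.455 in P, and Zfp955a, a zinc finger gene, at 0.250 in clone T and 0.40 in clone L, against 0.125 in E, 0.143 in I, 0.143 in K and 0.0625 in P. Below the gap of 0.1, Adamts17, a secreted metalloprotease, had 0.257 in T and 0.231 in L against 0.0959 to 0.166, and Htra1, a secreted serine protease, 0.299 in T and 0.247 in L against 0.171 to 0.193. Kdm4c, a histone demethylase, had 0.782 in T and 0.766 in L against 0.60 to 0.716 in 1 of its 2 promoter rows. Cep170, a centrosomal protein gene, had 0.691 in T and 0.709 in L against 0.476 to 0.641, and Csgalnact2, an enzyme of chondroitin sulphate synthesis, 0.166 in T and 0.160 in L against 0.0988 to 0.116. Rps2, a ribosomal protein gene on chromosome 17, was at 0.230 in T and 0.222 in L against 0.135 to 0.175, and the non-coding RNA genes Snora78 (0.244 in T and 0.237 in L against 0.142 to 0.185) and Snhg9 (0.244 in T and 0.234 in L against 0.140 to 0.183) had nearly the same levels and are neighbours of it, so the 3 are not separate observations. Olfr994 (0.391 in T and 0.396 in L against 0.239 to 0.333), Mir1983 (0.609 in T and 0.609 in L against 0.507 to 0.551) and Snord64 (0.706 in T and 0.727 in L against 0.525 to 0.655) complete the 15.

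**Figure D2:**
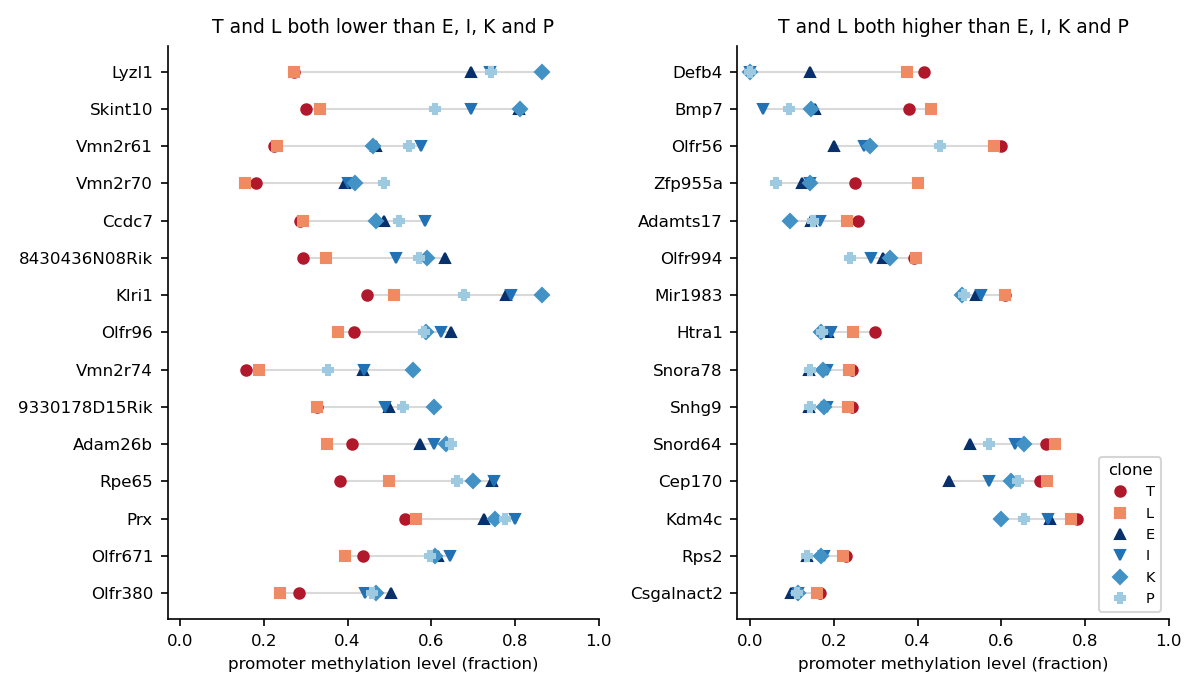
Promoter methylation level (fraction, horizontal axis) in each of the 6 clones for the 15 autosomal promoters with the largest gap in which T and L were both lower (left) or both higher (right) than E, I, K and P, 1 symbol per clone. At Lyzl1 the pair sits at 0.27 and the others from 0.694 upward, while at Bmp7 the pair is at 0.379 and 0.432 and the others are at or under 0.154.

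The choice of 0.1 as the gap falls in a dense part of the distribution for lower promoters. The smallest gap inside it was 0.10 and the largest outside 0.0999, with 43 promoters within 0.01 above it and 57 within 0.01 below. For higher promoters the threshold fell in an empty stretch, between 0.0651 and 0.107.

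The size of the promoter loss depended on the level from which it started. At promoters with a starting level of at most 0.1, T and L had means of 0.0419 and 0.0419 against 0.0439, a loss of 0.0020 over 4996 promoters. Here clone K, at 0.0392, was below both. The loss was 0.0119 between 0.1 and 0.2, 0.0331 between 0.2 and 0.4 and 0.0572 between 0.4 and 0.6. It was highest between 0.6 and 0.8, at 0.0613, with 0.654 in T and 0.633 in L against 0.699 to 0.711 in the others, and 0.0411 above 0.8. With the class set from the mean of all 6 clones the loss was 0.0588 between 0.4 and 0.6 and 0.0583 between 0.6 and 0.8, so the order of these 2 classes depends on how the class is set. As a share of the starting level, the middle classes lost most, 11.5% between 0.2 and 0.4 and 11.4% between 0.4 and 0.6, against 4.69% above 0.8. The share of promoters with both clones lower, by contrast, was larger in each higher class, from 7.87% in the lowest class to 53.5% above 0.8. Highly methylated promoters thus showed a smaller loss that separated the clones more often than the larger loss of the middle classes. With the class set from clones K and P and the loss taken from E and I, the loss in the 2 lowest classes was 0.00756 and 0.0195. The gap of 0.1 was most common between 0.4 and 0.6, at 1.84% of promoters. After quantile normalisation the losses of the same 6 classes were far smaller, from -0.00371 between 0.1 and 0.2 to 0.00330 between 0.6 and 0.8, and negative in the 3 classes up to 0.4.

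HMRs differed more than promoters from the same starting level. Where E, I, K and P were all at 0 (19265 HMRs), T and L averaged 0.00282 and 0.00673. The loss was 0.00785 above 0 and up to 0.1, 0.0479 between 0.1 and 0.2 and 0.0955 between 0.2 and 0.4. Between 0.4 and 0.6, the 7080 HMRs had means of 0.331 in T and 0.260 in L against 0.429 to 0.511 in the others, a loss of 0.169. Promoters that started in this class lost 0.0572. An HMR is listed because it was called low, in which clones is not stated, and promoters pass no such filter. An HMR high in E, I, K and P may thus be listed for a low level in T or L. The part of this filter in the difference between HMRs and promoters was not tested. The 446 HMRs between 0.6 and 0.8 had a loss of 0.258, and clone L was below clone T by a margin not seen in promoters, at 0.340 against 0.436. The starting level is part of the loss, so an HMR that is high by error in E, I, K and P enters a high class and shows a larger loss. With the class set from clones E and I and the loss taken from K and P, the loss was 0.106 between 0.4 and 0.6 and 0.145 between 0.6 and 0.8. With the class from K and P and the loss from E and I it was 0.0749 between 0.1 and 0.2 and 0.174 between 0.6 and 0.8. In both cases the loss was larger in each higher class up to 0.8. With the class set from the mean of all 6 clones it was 0.162 between 0.4 and 0.6 and 0.153 between 0.6 and 0.8, so the order of these 2 classes depends on how the class is set. After quantile normalisation the loss was -0.00729 between 0.1 and 0.2, 0.0050 between 0.2 and 0.4, 0.0525 between 0.4 and 0.6 and 0.147 between 0.6 and 0.8.

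**Figure D3:**
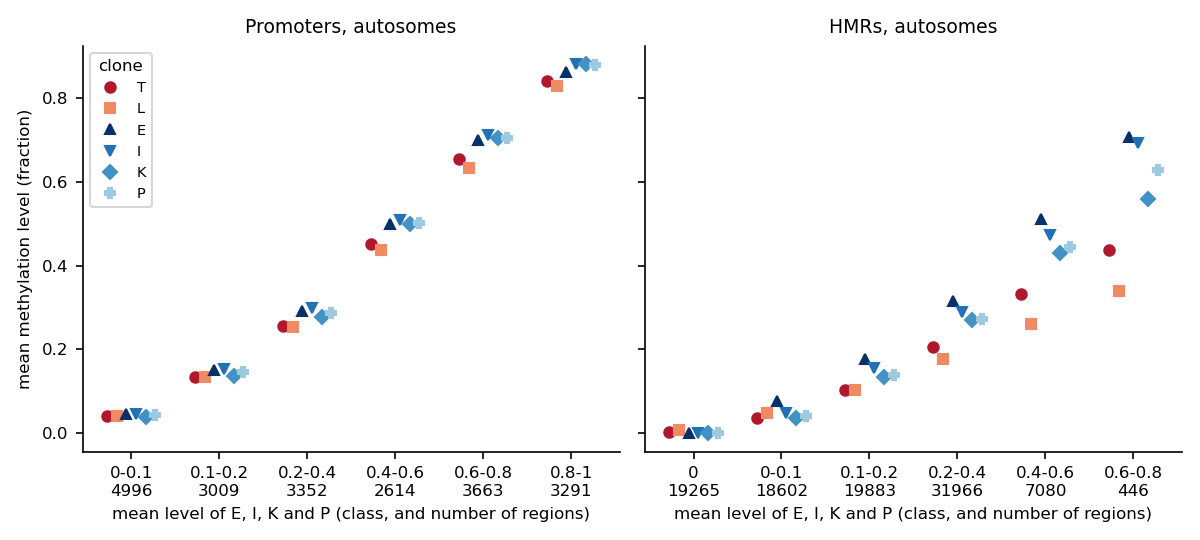
Mean methylation level (fraction, vertical axis) of each clone in classes of the mean level of E, I, K and P (horizontal axis, with the number of regions) for autosomal promoters (left) and HMRs (right), 1 symbol per clone, with classes under 20 regions left out. T and L lie close under the others in promoters that start above 0.1 and far under them in HMRs of 0.4 to 0.6, at 0.331 and 0.260 against 0.429 to 0.511.

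CpG content separated promoters beyond their starting level. Of the autosomal promoters, 12191 had 1 RefSeq sequence of 300 bases, from 250 before to 50 after the gene start. With under 1 CpG per 100 bases, mean levels were 0.403 in T and 0.374 in L against 0.452 in the others, a loss of 0.0634. The loss was 0.0512 with 1 to 3 CpGs per 100 bases, 0.0255 with 3 to 6 and 0.0133 with 6 or more. Among promoters that started between 0.4 and 0.6 the same 4 losses were 0.0797, 0.0605, 0.0362 and 0.0316. In that starting class, promoters poor in CpG thus had larger losses than dense ones. Above 0.8 the 4 losses lay closer together, from 0.0367 to 0.0493, and the dense promoters were the most often separated there, 70.2% with both clones lower against 41.0% of the poorest. Of the 91 promoters lower by the gap of 0.1 that had a sequence, 56 (61.5%) had under 1 CpG per 100 bases, as had 19.3% of all with a sequence. A promoter with few CpGs also has fewer cytosines behind its level, and the part of that in the gap was not tested.

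**Figure D4:**
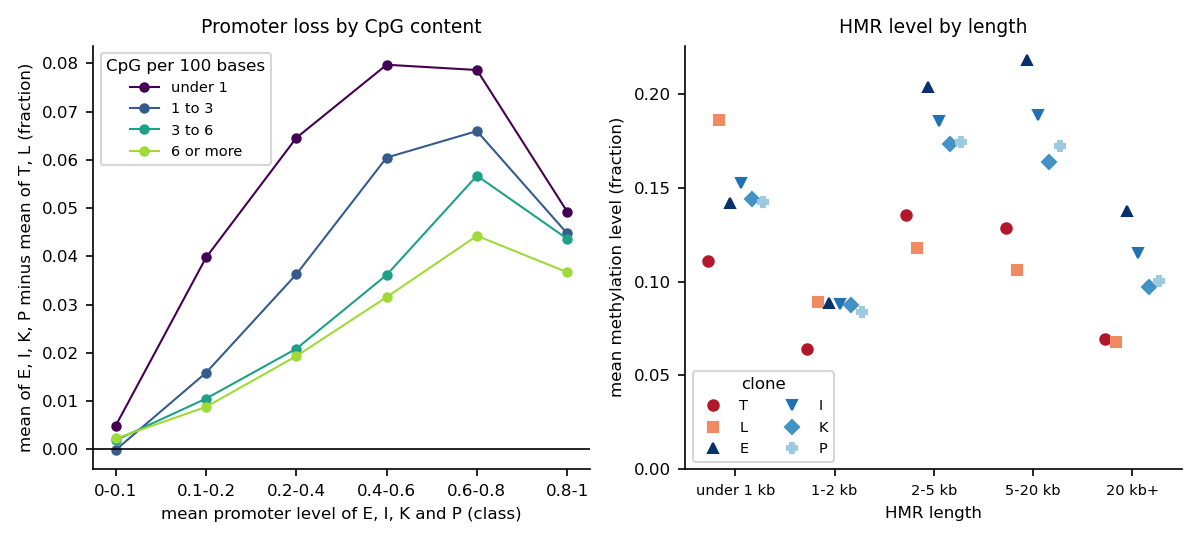
Left, mean of E, I, K and P minus mean of T and L (fraction, vertical axis) by starting level class (horizontal axis), 1 line per class of CpG per 100 bases of promoter. Right, mean HMR level (fraction) of each clone by HMR length; between 0.1 and 1 the line for under 1 CpG per 100 bases is the highest, and in HMRs under 1 kb clone L, at 0.186, is above the other 5 clones.

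Chemosensory receptor genes are many, clustered and poor in CpG, and are active in sensory neurons. They made up 38 of the 141 promoters lower by the gap of 0.1 (27.0%) and 1417 of all 20925 (6.77%). Over the 1094 olfactory receptor promoters, mean levels were 0.337 in T and 0.305 in L against 0.384 to 0.399 in the others. Both clones were lower at 373 of them (34.1%) and higher at 7, and the median loss was 0.0670 against 0.0236 over all promoters. The 170 vomeronasal receptors of type 1 had a mean loss of 0.0609, with Vmn1r50 at 0.0230 in T and 0.0748 in L against 0.231 to 0.329, Vmn1r214 at 0.312 in T and 0.273 in L against 0.462 to 0.483 and Vmn1r228 at 0.417 in T and 0.346 in L against 0.558 to 0.679. The 101 of type 2 had a loss of 0.0635, yet only 24 (23.8%) were lower in both clones, near the background of 26.4%. One of this family went the other way, Vmn2r51, with 0.20 in T and 0.0976 in L against 0 to 0.0588. The 52 taste and trace amine receptors had a loss of 0.0692, with Tas2r115 at 0.368 in T and 0.360 in L against 0.50 to 0.603 and Taar8a at 0.341 in T and 0.299 in L against 0.466 to 0.598. After quantile normalisation the mean loss of the olfactory receptors was 0.0319 and those of the 3 other receptor lists 0.0280 to 0.0326.

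Receptor promoters were compared with other CpG-poor promoters. Of the receptor promoters with a sequence, 85.1% had under 1 CpG per 100 bases, against 12.1% of other genes. Within that CpG class, the 1022 receptor promoters had a loss of 0.0679 and the 1333 others one of 0.0599. The shares with both clones lower were 30.6% and 32.7%. Over promoters of any CpG content the losses were 0.0684 and 0.0290, so the distance between receptors and other genes was smaller among CpG-poor promoters. From a starting level between 0.4 and 0.6 the loss was 0.0861 in receptors and 0.0745 in the others.

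The lectin-like receptors of natural killer and myeloid cells had the largest mean loss of the lists with 10 or more promoters. Their 62 promoters were at 0.416 in T and 0.387 in L against 0.520 in E and 0.461 to 0.482 in I, K and P. The high level of clone E adds to this loss, and the rank of the list without E was not computed. Of the 62, 23 (37.1%) were lower in both T and L. Beside Klri1, 1 of the 2 promoter rows of Klra7 was at 0.532 in T and 0.343 in L against 0.660 to 0.746. Clec9a, a receptor of dendritic cells, was at 0.350 in T and 0.346 in L against 0.470 to 0.60. Keratins, the filament proteins of epithelia and hair, had 27 of 50 promoters lower in both clones (54.0%), among them the hair keratin Krt82 at 0.518 in T and 0.506 in L against 0.635 to 0.702 and Krt2 of the upper epidermis at 0.591 in T and 0.578 in L against 0.673 to 0.740. Keratin-associated proteins of hair had 10 of 42 lower (23.8%), with Krtap8-1 at 0.294 in T and 0.260 in L against 0.430 to 0.576. Defensins had 15 of 50 lower and 1 higher, which was Defb4, and Defb13 was the one lower by the gap of 0.1, at 0.229 in T and 0.259 in L against 0.361 to 0.412. Over all promoters the share was 26.4%, and those of keratin-associated proteins and defensins (30.0%) were near it. Keratins started at 0.643 and had a loss of 0.0618. All promoters that started between 0.6 and 0.8 had a loss of 0.0613, with 42.3% lower in both clones. Lectin-like receptors started at 0.481, and of all promoters that started between 0.4 and 0.6, 29.9% were lower. After quantile normalisation the 4 lists kept a positive loss, from 0.00282 in defensins to 0.0354 in the lectin-like receptors.

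Several lists that started from high levels were among the most often separated, though not every such list was. Of the 37 germline promoters, which belong to genes of meiosis and of germ cell RNA control, 23 (62.2%) were lower in both clones and none was higher. Their levels were 0.798 in T and 0.775 in L against 0.828 to 0.844, so the promoters remained highly methylated in the pair. Nanos2, an RNA-binding protein of male germ cells, was at 0.559 in T and 0.598 in L against 0.665 to 0.710, Tdrd9, a helicase of the piRNA pathway, at 0.707 in T and 0.654 in L against 0.771 to 0.815, and Figla, a transcription factor of oocytes, at 0.812 in T and 0.784 in L against 0.868 to 0.912. Genes of pluripotency and the early embryo had 13 of 23 lower (56.5%), with Lefty1, an inhibitor of Nodal signalling, at 0.785 in T and 0.788 in L against 0.828 to 0.852 and the nuclear receptor Esrrb at 0.754 in T and 0.729 in L against 0.787 to 0.798. Potassium channel genes had 64 of 101 lower (63.4%), with 1 of the 2 promoter rows of Kcne3 at 0.455 in T and 0.497 in L against 0.60 to 0.613. Kcns1 was at 0.646 in T and 0.601 in L against 0.735 to 0.774. HOX genes, which set position along the body axis, had 22 of 39 lower and 2 higher: Hoxc6 was at 0.632 in T and 0.637 in L against 0.702 to 0.801, Hoxa7 at 0.913 in T and 0.909 in L against 0.757 to 0.876. These shares are above the background of 26.4%, but the lists also start higher. The germline list started at 0.837, and of all promoters that started above 0.8, 53.5% had both clones lower. The other 3 lists started at 0.675 to 0.701, and of all promoters that started between 0.6 and 0.8, 42.3% had. After the shift to 1 mean, 8 germline promoters were lower and 0 higher, 3 and 0 of the pluripotency list, 25 and 5 of the potassium channels and 10 and 6 of the HOX genes. Imprinted genes, expressed from 1 parental allele, had 21 of 47 lower (44.7%), with Slc22a18 at 0.640 in T and 0.581 in L against 0.697 to 0.737 and Ndn at 0.815 in T and 0.826 in L against 0.877 to 0.90. After the shift 4 imprinted promoters were lower and 6 higher, so the balance of this list turned, and after quantile normalisation its loss was 0.000705, against 0.0410 as deposited.

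Among the lists tied to the mammary gland and to tumour spread, the mammary lineage list had the largest share of promoters lower in both clones, 12 of 27 (44.4%). This became 5 lower and 3 higher after the shift to 1 mean. The mean loss of the list, 0.0356, became -0.00151 after quantile normalisation. Elf5, the transcription factor of the alveolar lineage, had 1 of its 2 promoter rows lower by the gap of 0.1, at 0.647 in clone T and 0.642 in clone L, against 0.755 in E, 0.785 in I, 0.758 in K and 0.756 in P, and was the one gene of the lists of names with such a gap. The other row was at 0.602 in T and 0.574 in L against 0.638 to 0.664. Krt14, a basal keratin, was at 0.146 in T and 0.112 in L against 0.211 to 0.221, and Egfr, the epidermal growth factor receptor, at 0.595 in T and 0.590 in L against 0.656 to 0.729. Epithelial genes had 5 of 40 lower (12.5%), mesenchymal genes 8 of 27 and transcription factors of the epithelial-mesenchymal transition 2 of 15, among them Foxc2 at 0.705 in T and 0.803 in L against 0.833 to 0.901. Their mean losses of 0.0212, 0.0239 and 0.0226 were below the 0.0318 of all promoters. Each turned negative after quantile normalisation (-0.00460, -0.0170 and -0.00180). The shift to 1 mean takes 0.0318 off every mean loss, so any loss below that turns negative by construction. Matrix proteases and inhibitors had 12 of 33 lower and 0 higher as deposited but 4 lower and 4 higher after the shift. The mean loss of this list, 0.0390, became -0.00125 after quantile normalisation. The gelatinase Mmp2 was at 0.691 in T and 0.675 in L against 0.754 to 0.782. Matrilysin, Mmp7, was at 0.660 in T and 0.654 in L against 0.719 to 0.804. Slpi, a secreted protease inhibitor, was at 0.579 in clone T and 0.580 in clone L, against 0.614 in E, 0.690 in I, 0.60 in K and 0.673 in P, a gap of 0.0198. Serpine2, a serine protease inhibitor, did not separate the pair: it was at 0.229 in clone T and 0.489 in clone L, against 0.449 in E, 0.611 in I, 0.309 in K and 0.323 in P.

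Several lists with low starting levels showed small losses, but others did not. Vomeronasal receptors of types 1 and 2 started at 0.315 and 0.321 and had losses of 0.0609 and 0.0635. Major urinary proteins started at 0.256 and had a loss of 0.0495, though 0 of their 17 promoters were lower in both clones. Ribosomal protein genes had a loss of 0.00790 with 12 of 79 lower, and clustered histone genes one of 0.00525 with 5 of 58 lower. Housekeeping genes were lower in both clones at 1 of 19 promoters. Genes that write, read and erase DNA methylation had 3 of 27 lower. Dnmt3l, a cofactor of de novo methylation, was at 0.687 in T and 0.677 in L against 0.734 to 0.783, and Dnmt3a, a de novo methyltransferase, at 0.906 in T and 0.914 in L against 0.916 to 0.957. Mbd1, a protein that binds methylated DNA, was the higher member, at 0.155 in T and 0.162 in L against 0.0921 to 0.118. In antigen presentation and interferon genes clone L was not low: their 37 promoters were at 0.256 in T and 0.297 in L against 0.286 in the others, so that L lay above the mean of the 4 clones. Irf8, a transcription factor of myeloid cells, was at 0.254 in T and 0.305 in L against 0.157 to 0.235, with both clones above the 4 others. After quantile normalisation the losses of the histone, ribosomal, methylation and interferon lists turned negative, and that of the housekeeping list (0.0179) did not. The shift to 1 mean turns all of these negative by construction, since they are below the 0.0318 of all promoters.

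**Figure D5:**
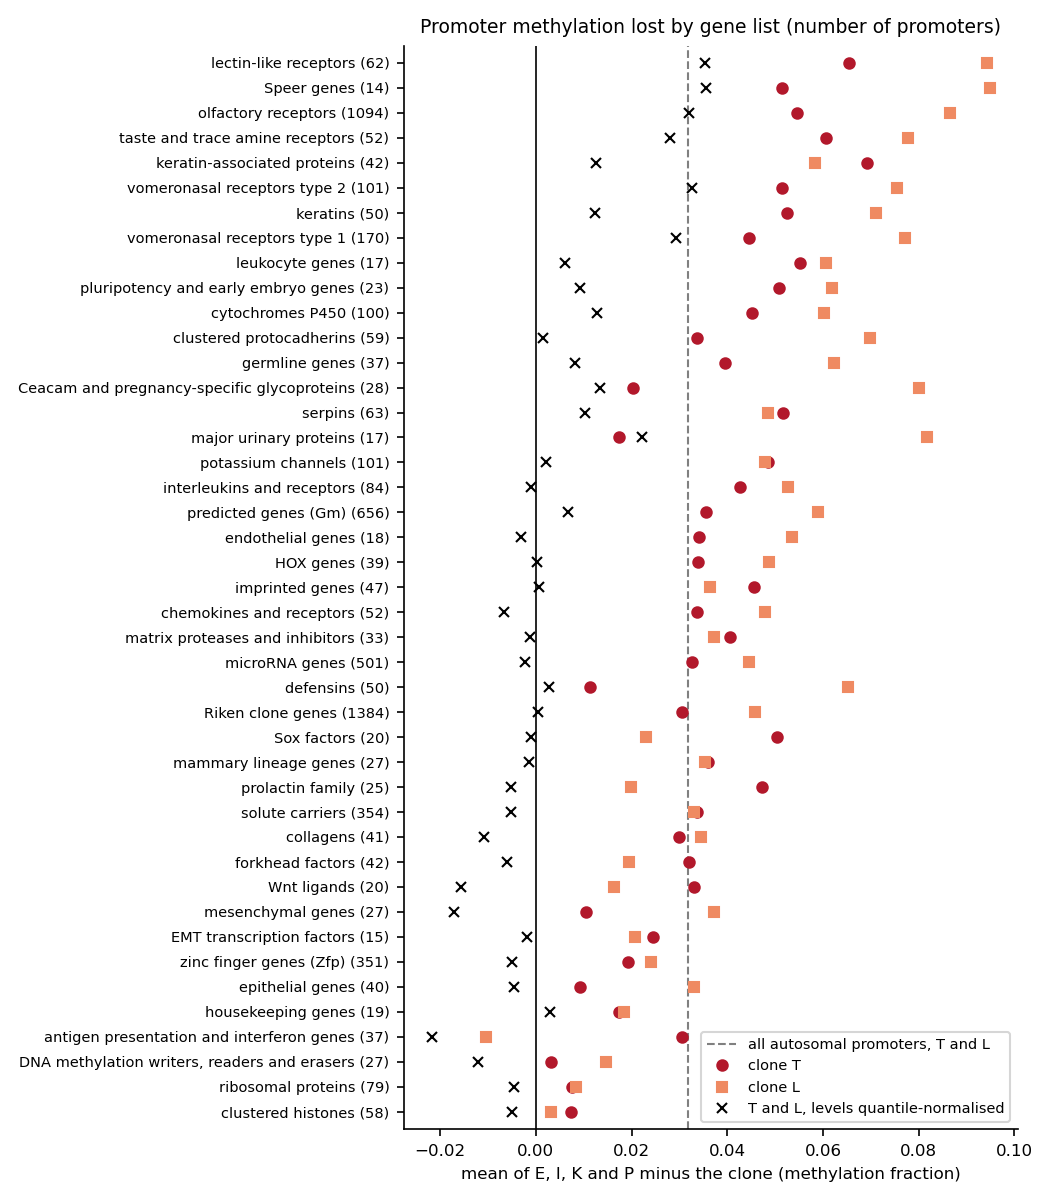
Mean promoter level of E, I, K and P minus that of clone T (circles) and clone L (squares), as a methylation fraction, for each gene list with 10 or more promoters (number in brackets), with the mean loss of all autosomal promoters as a dashed line and the loss after quantile normalisation as crosses. The chemosensory and lectin-like receptor lists keep crosses between 0.028 and 0.035, and the antigen presentation list is the one with clone L left of 0.

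Some lower promoters lay in runs of neighbouring genes. Of 19356 genes with a RefSeq position, 4927 had all their promoter rows lower in both clones, and 115 runs of 4 or more neighbouring genes held 559 of them. With so many lower genes some runs arise without any grouping, and the number to expect was not computed. The 10 runs of 7 or more genes, described here after their values were seen, include 2 from the imprinted microRNA cluster on chromosome 12. The run from Mir127 to Mir1188, with the non-coding Rian, averaged 0.704 in T and 0.676 in L against 0.766. On chromosome 14 the 7 genes Mcpt4, Mcpt8, Ctsg, Gzme, Gzmd, Gzmg and Gzmn, proteases of mast cells, neutrophils and cytotoxic lymphocytes, averaged 0.431 and 0.406 against 0.562. On chromosome 15 the keratin run from Krt86 to Krt75 averaged 0.504 and 0.498 against 0.591. Each of these 2 runs is made largely of 1 gene family. The late cornified envelope genes of the epidermis on chromosome 3, from Lce1h to Lce3b, averaged 0.351 and 0.346 against 0.480. The sodium channel run on chromosome 2, from Scn1a to B3galt1, averaged 0.605 and 0.587 against 0.70. The longest run, 9 genes from Fbxo25 to Csmd1 on chromosome 8, mixes unrelated genes and averaged 0.553 and 0.587 against 0.638. Neighbouring microRNA genes can share a promoter interval, so a run of them is not a count of separate regions.

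HMRs were then described by the same rule. Both T and L lay below all 4 other clones at 20973 of 97247 autosomal HMRs (21.6%) and above them at 775 (0.797%). With the gap of 0.1, 3068 HMRs were lower (3.15%) and 56 higher (0.0576%). After the shift to 1 mean the counts with any gap were 8512 and 25347, and with the gap of 0.1 they were 810 and 237. After quantile normalisation they were 5381 and 5755 with any gap, and 404 and 463 with the gap. All 56 higher HMRs kept the gap under both scalings. All 810 lower HMRs after the shift, and 403 of the 404 after quantile normalisation, were among the 3068. Without clones T, L, K and P, in turn, 10742, 6824, 5687 and 5074 HMRs were lower by the gap. Without T and L 1250 and 663 were higher, and without E, I, K or P between 90 and 161. The smallest lower gap inside the threshold and the largest outside were both 0.10 as rounded, with 667 HMRs within 0.01 above and 686 within 0.01 below.

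HMRs lower in the pair were longer than HMRs as a whole. Their median length was 5696 bp, against 4974 bp for all autosomal HMRs. Their median starting level was 0.393, and the gap itself requires a starting level of at least 0.1. Of all HMRs of 1 to 2 kb, 51.0% were at 0 in E, I, K and P, against 11.1% of those of 5 to 20 kb. The rule thus leaves out short HMRs more often, and its part in the length was not tested. In 146 of the 3068 both T and L were at exactly 0. The largest gap was at chr12:114167800-114168128, only 328 bp long, listed at 0 in T and L and at 0.50 in each of the other 4, and the depth behind these levels is unknown. Coordinates of HMRs and of windows are as in the deposited table and are not to be read as GRCm38.p6 positions. Their build was not established, so HMRs are not placed in genes. The next, chr15:22721152-22726651, was also listed at 0 in T and L, with 0.60 in E, 0.50 in I, 0.50 in K and 0.375 in P. chr2:138797890-138804563 was at 0.125 in T and 0 in L against 0.50 to 0.692, chr6:109422334-109426863 at 0.0575 in T and 0 in L against 0.422 to 0.641, chr15:22019316-22025307 at 0.231 in T and 0 in L against 0.588 to 0.812 and chr11:17984507-17994186 at 0.105 in T and 0 in L against 0.455 to 0.560, and each had L listed at 0.

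Where neither clone was at 0, the largest gap was 0.368. The HMR chr10:101461266-101467170 was at 0.281 in clone T and 0.258 in clone L, against 0.833 in E, 0.882 in I, 0.718 in K and 0.649 in P. T and L differed there by little, and the other clones were all above 0.6. A second HMR of that stretch of chromosome 10, chr10:100959568-100968343, was at 0.219 in T and 0.240 in L against 0.563 to 0.823, and another HMR of the chromosome, chr10:31617039-31624855, at 0.30 in T and 0.232 in L against 0.652 to 0.789. Others were chr17:70544677-70547462 with 0.20 in T and 0.20 in L against 0.538 to 0.692, chr5:120077732-120079470 with 0.20 in T and 0.155 in L against 0.519 to 0.583, and chr13:37401265-37403147 with 0.250 in T and 0.0909 in L against 0.571 to 0.733. At chr7:98103938-98107951 the pair itself was split, with 0.0312 in T and 0.414 in L against 0.732 to 0.805. The HMR chr15:47576874-47589465 was at 0.0620 in T and 0.104 in L against 0.419 to 0.714.

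HMRs higher in the pair were shorter than HMRs as a whole. Their median length was 1664.5 bp, 13 of the 56 were under 1 kb, and 25 were at 0 in all of E, I, K and P, a share of 44.6% against 19.8% of all HMRs. The rule itself favours HMRs at or near 0 in these 4 clones, since they must lie at least 0.1 under T and L. Of all HMRs of 1 to 2 kb, 51.0% were at 0 in E, I, K and P. The part of this in the share and in the length was not tested. chr18:66795560-66800909 was at 0.436 in T and 0.359 in L and at 0 in the 4 others. chr2:172764652-172767214 was at 0.286 and 0.40, chr7:105251655-105252320 at 0.50 and 0.333, chr7:152187083-152188852 at 0.267 and 0.417, and chr5:94087888-94090465 at 0.273 and 0.20, again with all 4 others at 0. Each is thus a region methylated in T and L alone among the 6 clones, as far as a level of 0 can be read. chr2:172730105-172731360 was methylated in all, at 0.707 in clone T and 0.586 in clone L, against 0.170 in E, 0.194 in I, 0.382 in K and 0.348 in P. chr8:86263741-86265015 had 0.668 in T and 0.646 in L against 0.207 to 0.437, and chr13:21998838-22000330 had 0.436 in T and 0.311 in L against 0 to 0.0697.

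The low level of the pair depended on HMR length. In the 3207 HMRs under 1 kb, clone T was the lowest at 0.111 but clone L was the highest of all 6 at 0.186, with the others at 0.142 to 0.153. Between 1 and 2 kb, T was at 0.0641 and L, at 0.0889, again slightly above the range of 0.0836 to 0.0885. Clone L was thus not low over short HMRs. From 2 to 5 kb both were low, at 0.136 and 0.118 against 0.173 to 0.204. From 5 to 20 kb the levels were 0.128 and 0.106 against 0.164 to 0.218, and both clones were lower at 27.4% of HMRs. At 20 kb or more they were 0.0694 and 0.0675 against 0.0969 to 0.137. The same held at 1 starting level: between 0.4 and 0.6, the loss was 0.0486 under 1 kb, 0.116 from 1 to 2 kb, 0.164 from 2 to 5 kb and 0.190 from 5 to 20 kb. After quantile normalisation the loss was positive only from 5 kb upward, at 0.00986 and 0.00466 for the 2 longest classes.

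Along the genome the pair was low nearly everywhere, to unequal degrees. Of 2203 windows of 1 Mb with at least 10 HMRs, both clones had lower means than all 4 others in 1516 (68.8%) and higher means in 6, and the loss was positive in 2077. It ran from -0.0612 to 0.346, with a median of 0.0494, and 32 windows had a gap of at least 0.1. The window with the largest gap, chromosome 10 from 101 to 102 Mb, had 17 HMRs with means of 0.241 in T and 0.237 in L. There E was at 0.704, I at 0.704, K at 0.416 and P at 0.517. Chromosome 3 from 155 to 156 Mb (59 HMRs) was at 0.133 in T and 0.133 in L against 0.294 to 0.407. Chromosome 6 from 110 to 111 Mb (43 HMRs) was at 0.113 and 0.116 against 0.274 to 0.383. In these 3 windows T and L differed from each other by far less than from the nearest other clone. The choice of windows by the largest gap favours this, so it does not show that T and L are alike. The gap in the 6 windows with higher means was at most 0.00864, and the widest was on chromosome 13 from 99 to 100 Mb (12 HMRs), at 0.0472 and 0.0513 against 0.0167 to 0.0386.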

How the data were processed

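Genomic DNA of the 4T1 clones was bisulfite converted and sequenced as paired ends, per the labels' protocols. The authors deposited methylation levels as a fraction per promoter and per HMR, with 1 column per clone. No source used here states how the 2 rounds of each clone were combined, or names the aligner, the HMR caller or the promoter bounds. The submitters' processing notes name bedtools, DESeq and mm10, with no role. HMR coordinates were printed as deposited: on chromosome 7 they reach 152.5 Mb and 379 HMRs end past the last RefSeq gene of GRCm38.p6 (145.3 Mb). They were therefore not taken as mm10 positions, and their build was not established.

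Repeated promoter rows (145 of 22110) were counted once, which left 21965, of which 20925 were on autosomes. Of 20343 gene names, 18882 matched RefSeq by symbol, 1342 by synonym and 119 not to 1 gene. The levels of 210 autosomal promoters equalled those of another gene. Of the HMRs, 97247 of 101564 were on autosomes. No coverage minimum could be applied.

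A promoter or HMR counted as lower when the higher of T and L lay under the lowest of E, I, K and P, and as higher in the reverse case. The count was checked on simulated levels. The 15 promoters and 8 HMRs with the largest gap per direction were named, with the 8 lower HMRs among those above 0 in both clones, the 3 windows and up to 3 members per family list with the largest gaps, members of the lists of names with a gap of at least 0.1, and Serpine2 and Slpi. The other list members and markers that are named were chosen after their values were seen, as the members of each list of names with the largest gaps. The pair and the 45 gene lists were chosen with earlier results of these data known. Lists whose description would repeat these values were left out of the text and stand in the plot of gene lists. Python 3.11.15, pandas 2.3.3, NumPy 2.4.6 and matplotlib 3.10.9 were used.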

Additional observations from a re-analysis of the deposited data

Results flagged for a closer look

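Among the clones E, I, K and P, 1 clone stood far from the other 3 in 4 of the 67 groups of values looked at. For random values the rule flags about 1 group in 20. That rate does not hold here, since some groups had 4 equal values and others were chosen on these levels. No conclusion is drawn from the number flagged. In promoters that started between 0.4 and 0.6, clone I had a mean of 0.508, above the other 3 clones. In promoters that started above 0.8, clone E, at 0.862, was below them, though still above T and L. At the Defb4 promoter clone E was at 0.143 and the other 3 were listed at 0. At the HMR on chromosome 5 that starts at 120077732, clone K was at 0.583, above the other 3.

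Chromosome X was outside the comparisons above. Over its 916 promoters the loss was 0.0486, against 0.0318 on autosomes, with 0.456 in T and 0.444 in L against 0.489 to 0.506 in the others. Of its 4301 HMRs, 58.8% were at exactly 0 in both T and L, against 24.5% on autosomes. The pair was not the lowest there: clone K had the lowest mean, 0.0499, against 0.0654 in T and 0.0604 in L.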

How the results depend on the processing

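No paired analysis was possible because the deposited columns carry no round, and no test was made. Of 188 recomputed counts and losses, 138 stayed within the spread or within 1.5 times the count, and 50 moved. The 2 scalings turned the balance of lower and higher regions. After the shift to 1 mean the median promoter loss went from 0.0236 to -0.00824, and promoters with any gap from 5514 lower and 392 higher to 1818 and 4613. After quantile normalisation HMRs with the gap of 0.1 went from 3068 lower and 56 higher to 404 and 463. With gaps of 0.05 and 0.2 in place of 0.1, 909 and 4 promoters were lower, 12 and 2 higher, 9221 and 251 HMRs lower and 223 and 8 higher. After the shift to 1 mean, 39 promoters and 810 HMRs were lower and 237 HMRs higher. After quantile normalisation 24 promoters were lower. Of the higher HMRs, 13 were above 0 in all 6 clones and 25 were at least 2 kb long. Leaving out 1 clone at a time gave 203 to 986 lower and 4 to 65 higher promoters, and 3926 to 10742 lower and 90 to 1250 higher HMRs. It gave a promoter loss of 0.0499 to 0.0644 between 0.4 and 0.6 and of 0.0508 to 0.0718 between 0.6 and 0.8. The promoter loss was 0.0410 between the medians of the clones, and the HMR loss 0.0903 over HMRs above 0 in all 6 clones. With the class from K and P and the loss from E and I, promoters lost 0.00756 (0 to 0.1) and 0.0195 (0.1 to 0.2), and HMRs 0.0431 (0 to 0.1), 0.0749 (0.1 to 0.2) and 0.174 (0.6 to 0.8). With the class from E and I and the loss from K and P, promoters lost 0.0528 (0.4 to 0.6), and HMRs 0.0701 (0.2 to 0.4), 0.106 (0.4 to 0.6) and 0.145 (0.6 to 0.8). With the class from all 6 clones, HMRs between 0.6 and 0.8 lost 0.153. Counts with clones left out are larger because fewer clones must be separated. The cause of the other shifts was not tested. Depth is unknown, so levels that rest on few reads, among them levels of 0, cannot be marked.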
